A study of Mus musculus with 6 samples.

Results

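Tuft cells are rare chemosensory cells of the intestinal epithelium, and 10 genes that mark them or carry out their functions were followed in RNA sequencing of mouse colon: Dclk1, Trpm5, Il25, Pou2f3, Avil, Sh2d6, Alox5, Alox5ap, Ptgs1 and Gfi1b. The genes were chosen by name, and all 10 were found among the 30777 genes of the deposited table. The colon tissue came from mice of the inbred strain BALB/c. There were 6 libraries in 2 groups of 3. One group received 5-fluorouracil (5-Fu), a chemotherapy drug that blocks thymidylate synthesis and kills dividing cells of the gut lining, and the other received it with berberine (5-Fu+BBR), a plant alkaloid. Both groups thus received 5-fluorouracil, no library of untreated colon was analysed here, and no age, dose or time is stated in the labels. No label ties a sample to an animal, and p-values therefore describe the spread among these samples, which may be technical.

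In the gut, tuft cells sense luminal metabolites through G protein-coupled receptors, a taste-like phospholipase C cascade and the calcium-activated cation channel TRPM5. Activated tuft cells release IL-25, which stimulates group 2 innate lymphoid cells to make IL-13, and IL-13 in turn increases tuft cell differentiation. They also make leukotrienes and prostaglandins from arachidonic acid, and their fate depends on the transcription factor POU2F3.

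None of the 10 genes passed the test for a difference between the groups, and the groups of most of them overlapped. Dclk1 was at 8.18 ± 3.22 CPM with 5-Fu alone and 13.3 ± 3.31 CPM with berberine added, and Gfi1b at 0.0972 ± 0.085 and 0.398 ± 0.0947 CPM (mean ± SD, n = 3 per group). CPM are counts relative to the library's total, with TMM scaling. By edgeR's quasi-likelihood test with Benjamini-Hochberg adjustment, 0 of the 9 genes tested had an adjusted p under 0.05, against 0.0746% of all 20101 genes tested (0.0597% with a higher and 0.0149% with a lower level in 5-Fu+BBR). At an unadjusted p under 0.05 the count was also 0 of 9 by edgeR, against 15.6% of all genes (9.48% higher and 6.08% lower). DESeq2 gave Il25 and Pou2f3 no adjusted p and passed 0 of the other genes, and limma-voom passed 0 of 9, while 2 and 3 had an unadjusted p under 0.05. The log2 fold change, 5-Fu+BBR minus 5-Fu, was positive for 6 of the 9 genes, against 50.7% of all genes, with a median of 0.51 beside 0.0051 over all genes. Il25 was too low to be tested. Gfi1b and Pou2f3 exceeded the minimum of the filter, 0.182 CPM, in 3 of 3 libraries of 5-Fu+BBR but in 0 and 1 of 3 libraries of 5-Fu, and so entered the test only through the group where they were higher. Sh2d6 exceeded this minimum in 3 of 3 libraries of 5-Fu+BBR and in 2 of 3 of 5-Fu. Gfi1b, Pou2f3 and Sh2d6 are all among the 6 genes with a positive log2 fold change. The count of 6 and the median of 0.51 are therefore no support for a difference of the 10 genes.

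The deposited counts are treated here as estimates, since the most common count from 2 to 10 was 4 in every library, and 1 sequenced fragment is taken as up to 4 counts. Deposited counts summed to between 53824752 and 63831168 per library. Epithelial markers were abundant in all libraries, with the summed CPM of 8 genes (led by Krt8, Lgals4 and Epcam) between 13678 and 17874 in 5-Fu and between 13492 and 15778 in 5-Fu+BBR. Summed markers of kidney (9 genes, led by Kap, Slc34a1 and Umod) ranged from 18.6 to 20.8 CPM in 5-Fu. They reached 20.5 CPM in 5-Fu+BBR replicate 1, but 179 CPM in replicate 2 and 172 CPM in replicate 3, and the 10 genes are therefore also described without the last 2 libraries.

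Levels per transcript length, as the deposited FPKM (fragments relative to transcript length and library size), spanned a wide range. Averaged over the 6 libraries, Ptgs1 had 6.43 FPKM (range 5.42 to 8.05) and Alox5ap 2.57 (1.24 to 3.89), and these 2 stood in that order in 6 of 6 libraries. Avil followed at 0.872, Dclk1 at 0.592, Sh2d6 at 0.343 and Alox5 at 0.219 FPKM. Neighbours in this part of the order were not fully separated, since Avil exceeded Dclk1 in 4, Dclk1 exceeded Sh2d6 in 5 and Sh2d6 exceeded Alox5 in 5 of the 6 libraries. Trpm5 (0.117), Gfi1b (0.104), Pou2f3 (0.0565) and Il25 (0.00577) were the lowest. Trpm5 exceeded Gfi1b in only 3 of 6 libraries. The genes with the highest levels, Ptgs1, Alox5ap and Avil, are also made by cells other than tuft cells, while the factor that defines the lineage, Pou2f3, was listed at 0 in 2 libraries.

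**Figure D1:**
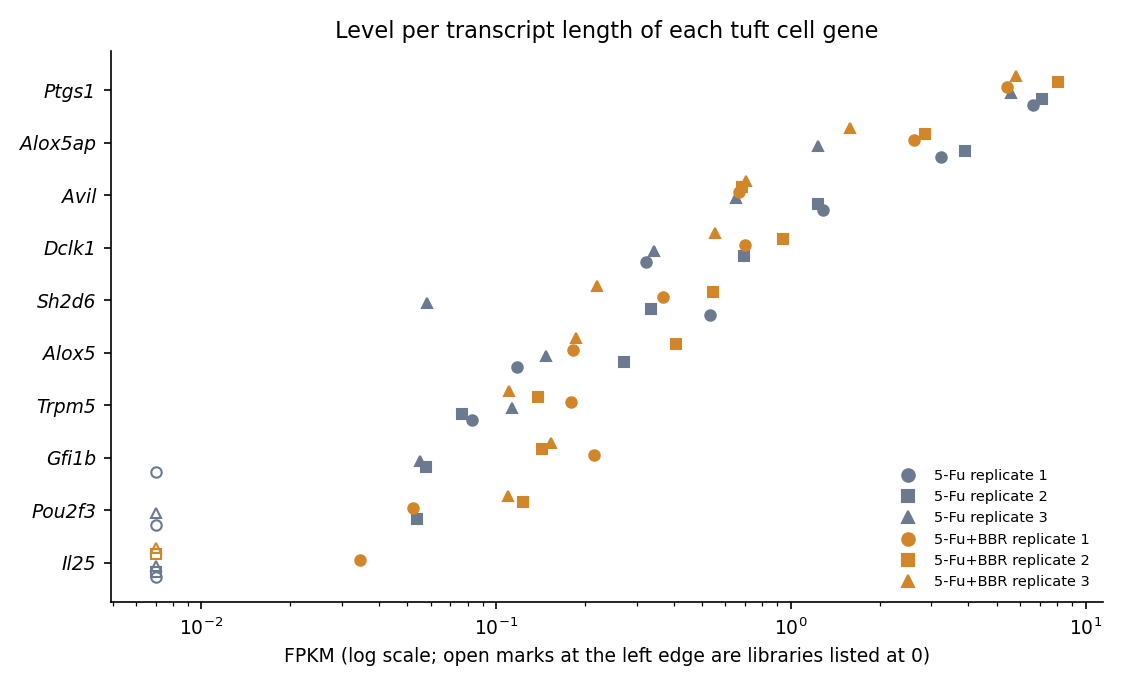
Deposited FPKM on a log axis for each of the 10 genes in each of the 6 libraries, with open marks at the left edge for libraries listed at 0. Ptgs1 lies highest, from 5.42 to 8.05 FPKM, and Il25 lowest, listed at 0 in all libraries but 1.

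Among the genes of lineage and identity, Pou2f3 (ENSMUSG00000032015, chromosome 9, 43123939 to 43210369 of GRCm38) encodes the POU-domain transcription factor required for tuft cells. Its estimated counts for replicates 1 to 3 were 0, 13 and 0 with 5-Fu, against 12, 25 and 23 with 5-Fu+BBR. In CPM these are 0, 0.194 and 0 against 0.203, 0.452 and 0.415. The groups did not overlap in CPM, by the narrow gap between 5-Fu replicate 2 and 5-Fu+BBR replicate 1, but these 2 libraries changed order in FPKM (0.054 and 0.0523). The log2 fold change was 2.34 ± 1.23 (SE; 95% interval -0.49 to 5.17, edgeR adjusted p = 0.404). Taken as about 3 fragments in all of 5-Fu and 15 in 5-Fu+BBR, the ratio was 5.11, with an exact 95% interval of 1.44 to 27.5 that covers counting error only and not the spread between samples. The 2 coactivators of POU2F3, chosen after their values were seen, were tested as 1810046K07Rik (Pou2af2) and Colca2 (Pou2af3), with log2 fold changes of 0.41 ± 0.82 and 0.42 ± 0.74 (edgeR adjusted p = 0.856 and 0.83).

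Gfi1b (ENSMUSG00000026815, chromosome 2, 28609450 to 28621982), a zinc finger repressor of tuft cells and also of platelet and red cell precursors, was the one gene of the 10 whose groups did not overlap on either scale. Its counts were 0, 9 and 8 in 5-Fu 1 to 3 and 30, 19 and 19 in 5-Fu+BBR 1 to 3, which is 0, 0.0578 and 0.0551 against 0.215, 0.143 and 0.153 FPKM. All 3 libraries of 5-Fu+BBR were thus above all 3 of 5-Fu, on about 4 fragments in 5-Fu and 17 in 5-Fu+BBR. The log2 fold change was 2.01 ± 0.95 (95% interval -0.17 to 4.18, edgeR adjusted p = 0.356), and the ratio of fragments 4.34 (exact 95% interval 1.42 to 17.7, counting error only). Non-overlap in CPM was seen for 3 of the 9 genes tested, against 21.9% of all genes tested. Gfi1b and Pou2f3 were higher, as were 12.3% of all genes, and Avil was lower, as were 9.68%. In FPKM the groups of 1 of the 9 did not overlap, against 19.9% of all genes (11.5% higher and 8.47% lower). Markers of platelets, megakaryocytes and red cells, 9 of 10 listed genes being in the table, summed to 8.97 to 23.7 CPM in 5-Fu and 20.3, 47.7 and 97.9 CPM in 5-Fu+BBR 1 to 3. Most of the sum in 5-Fu+BBR 2 and 3 came from the haemoglobin genes, with Hbb-bs at 7.71, 25.6 and 56.9 CPM and Hba-a1 at 6, 15.2 and 32.7 CPM in 5-Fu+BBR 1 to 3. Gata1, a defining factor of these cells named here after its values were seen, was at 0 in all 3 libraries of 5-Fu and at 0.135, 0 and 0.379 CPM in 5-Fu+BBR 1 to 3. Gfi1b was highest in 5-Fu+BBR replicate 1, where this sum was lowest of its group, and the part of these cells in the Gfi1b values was not tested.

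Dclk1 (ENSMUSG00000027797, chromosome 3, 55242364 to 55539068) encodes a microtubule-associated kinase that is the common histological marker of mouse tuft cells and is also made by neurons. It was at 5.89, 11.9 and 6.78 CPM in 5-Fu 1 to 3, against 13.2, 16.7 and 10 CPM in 5-Fu+BBR 1 to 3. The groups overlapped, since 5-Fu replicate 2 lay above 5-Fu+BBR replicate 3. The mean was 1.63-fold higher in 5-Fu+BBR (log2 fold change 0.70 ± 0.31, 95% interval -0.0059 to 1.41, edgeR adjusted p = 0.325). In bulk tissue, more cells of a type and more RNA per cell cannot be told apart. Enteric neuron and glia markers (11 of 11 in the table) summed to 56.5 to 66.7 CPM in 5-Fu and to 51.9, 64 and 41.3 CPM in 5-Fu+BBR 1 to 3. Ret, the receptor of glial cell line-derived neurotrophic factor, gave the most to this sum on average and was at 20.9, 22 and 15.6 against 13.4, 11 and 7.2 CPM, while 7 of the 11 had a positive log2 fold change (median 0.069). The part of these cells in the Dclk1 values was not tested.

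Sh2d6 (ENSMUSG00000052631, chromosome 6, 72513641 to 72521707) encodes an SH2-domain adaptor that is largely restricted to tuft cells. Its CPM were 1.1, 0.64 and 0.138 in 5-Fu 1 to 3 and 0.778, 1.09 and 0.469 in 5-Fu+BBR 1 to 3. The spread within 5-Fu exceeded the difference of the means (log2 fold change 0.31 ± 0.69, 95% interval -1.29 to 1.9, edgeR adjusted p = 0.872). Replicate 3 was the lowest of each group for Sh2d6, and this also held for Alox5ap.

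Avil (ENSMUSG00000025432, chromosome 10, 127000709 to 127020994) encodes advillin, an actin-binding protein of the tuft cell's apical bundles and of sensory neurons. It was at 5.19, 4.72 and 2.84 CPM in 5-Fu 1 to 3, against 2.79, 2.7 and 2.83 CPM in 5-Fu+BBR 1 to 3. The 3 libraries of 5-Fu+BBR lay close together, and 5-Fu replicate 3 was almost level with them. In FPKM that library, at 0.652, was below all 3 of 5-Fu+BBR (0.665 to 0.704). The mean CPM was 1.53-fold lower in 5-Fu+BBR (log2 fold change -0.62 ± 0.29, 95% interval -1.28 to 0.043, edgeR adjusted p = 0.351), the opposite direction to Dclk1, Pou2f3 and Gfi1b. Over 9423 bases Avil overlaps Tsfm, a mitochondrial translation elongation factor gene on the opposite strand. Tsfm was at 30.5, 23.8 and 22.9 CPM in 5-Fu 1 to 3, against 17.1, 20.7 and 18.1 CPM in 5-Fu+BBR 1 to 3 (log2 fold change -0.47 ± 0.16, edgeR adjusted p = 0.225), in the same direction as Avil. The libraries were strand-marked, but no source used here says whether counting used the strand. Without strand, reads of the 2 genes in the shared stretch cannot be told apart, and the Avil values are uncertain to that extent.

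The sequence before the gene start was read from RefSeq (GRCm38.p6) for the 7 of the 10 genes present in that promoter table, and Il25, Pou2f3 and Alox5ap had no entry. POU factors such as POU2F3 bind the octamer ATGCAAAT. In the 250 bases before the start, on either strand, the octamer was found before none of the 8 starts of these genes and in 1.6% of the 32851 promoters of the table. Its first 7 letters, ATGCAAA, were found before 1 of the 7 genes, Avil, which held 2 matches, 1 on each strand, beginning 115 and 15 bases before the start. At least 1 match was found in 4.12% and at least 2 in 0.247% of all promoters. Avil is shown for these matches, with both in capitals, and Dclk1 and Gfi1b, which had higher means in 5-Fu+BBR where Avil had a lower one, are shown beside it and hold no match. They lie at chr10:127000459-127000708 (+ strand), chr3:55242114-55242363 (+ strand) and chr2:28621983-28622232 (- strand), each written 5′ to 3′ and ending at the base before the start given by the deposited table.
Avil: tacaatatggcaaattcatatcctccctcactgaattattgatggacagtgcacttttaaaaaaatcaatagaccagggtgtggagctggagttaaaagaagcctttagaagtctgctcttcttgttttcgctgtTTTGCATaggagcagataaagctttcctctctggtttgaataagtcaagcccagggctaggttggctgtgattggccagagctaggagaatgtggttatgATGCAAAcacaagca
Dclk1: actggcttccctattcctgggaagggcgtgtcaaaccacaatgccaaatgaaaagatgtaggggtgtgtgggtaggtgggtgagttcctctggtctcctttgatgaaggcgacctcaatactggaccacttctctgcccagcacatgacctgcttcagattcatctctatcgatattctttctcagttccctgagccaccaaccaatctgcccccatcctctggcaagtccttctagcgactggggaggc
Gfi1b: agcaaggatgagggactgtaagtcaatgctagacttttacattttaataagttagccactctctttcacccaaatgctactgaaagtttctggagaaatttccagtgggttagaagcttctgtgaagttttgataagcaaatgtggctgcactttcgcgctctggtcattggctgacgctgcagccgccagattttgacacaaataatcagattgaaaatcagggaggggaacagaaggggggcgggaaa
A match of letters is a description and says nothing of binding.

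In the chemosensory branch, Trpm5 (ENSMUSG00000009246, chromosome 7, 143069153 to 143087214), the cation channel that depolarises the cell after taste-like stimulation, was at 0.648, 0.566 and 0.966 CPM in 5-Fu 1 to 3. It was at 1.44, 1.03 and 0.848 CPM in 5-Fu+BBR 1 to 3. The groups overlapped through replicate 3 of both, and the 1.52-fold difference of the means did not pass (log2 fold change 0.61 ± 0.40, 95% interval -0.31 to 1.53, edgeR adjusted p = 0.514). Tssc4, which overlaps Trpm5 by 1845 bases on the opposite strand, was at 23.5, 23.2 and 18.8 CPM against 17, 22 and 17.4 CPM (log2 fold change -0.22 ± 0.16, edgeR adjusted p = 0.56), so that its means differed in the opposite direction. The RefSeq start of Trpm5 lies 7428 bases outside the gene as the deposited table bounds it.

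Of the other 12 genes listed for chemosensory signalling, 9 were in the table and 7 were tested, and 0 passed by edgeR after adjustment, with 1 at an unadjusted p under 0.05, higher as were 9.48% of all genes. Their median log2 fold change was 0.70, beside 0.0051 over all genes tested, with 6 positive and 1 negative (50.7% of all genes were positive). Plcb2, the phospholipase C of taste transduction that leukocytes also make, was at 1.53, 4.85 and 2.44 CPM with 5-Fu alone, against 4.75, 9.59 and 7.56 CPM with berberine added (log2 fold change 1.31 ± 0.45, edgeR adjusted p = 0.241). Sucnr1, the succinate receptor, was at 0, 0.104 and 0 against 0.203, 0.181 and 0.234 CPM. All 3 libraries of 5-Fu+BBR were higher, but on about 9 fragments against 2, with a ratio of 4.59 whose exact 95% interval for counting error alone, 0.951 to 43.7, includes equal levels. Like Gfi1b, Sucnr1 exceeded the filter's minimum in no library of 5-Fu and entered the test only through 5-Fu+BBR. Its place among the 6 positive genes and in the median is no support for a difference of the list. The sweet and umami receptor subunits Tas1r3 and Tas1r1 and the short-chain fatty acid receptor Ffar3 had log2 fold changes of 0.70, 0.41 and 0.95 (edgeR adjusted p from 0.536 to 0.802). The taste G protein subunits Gnat3 and Gng13 were at most at 0.127 CPM and were not tested.

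**Figure D2:**
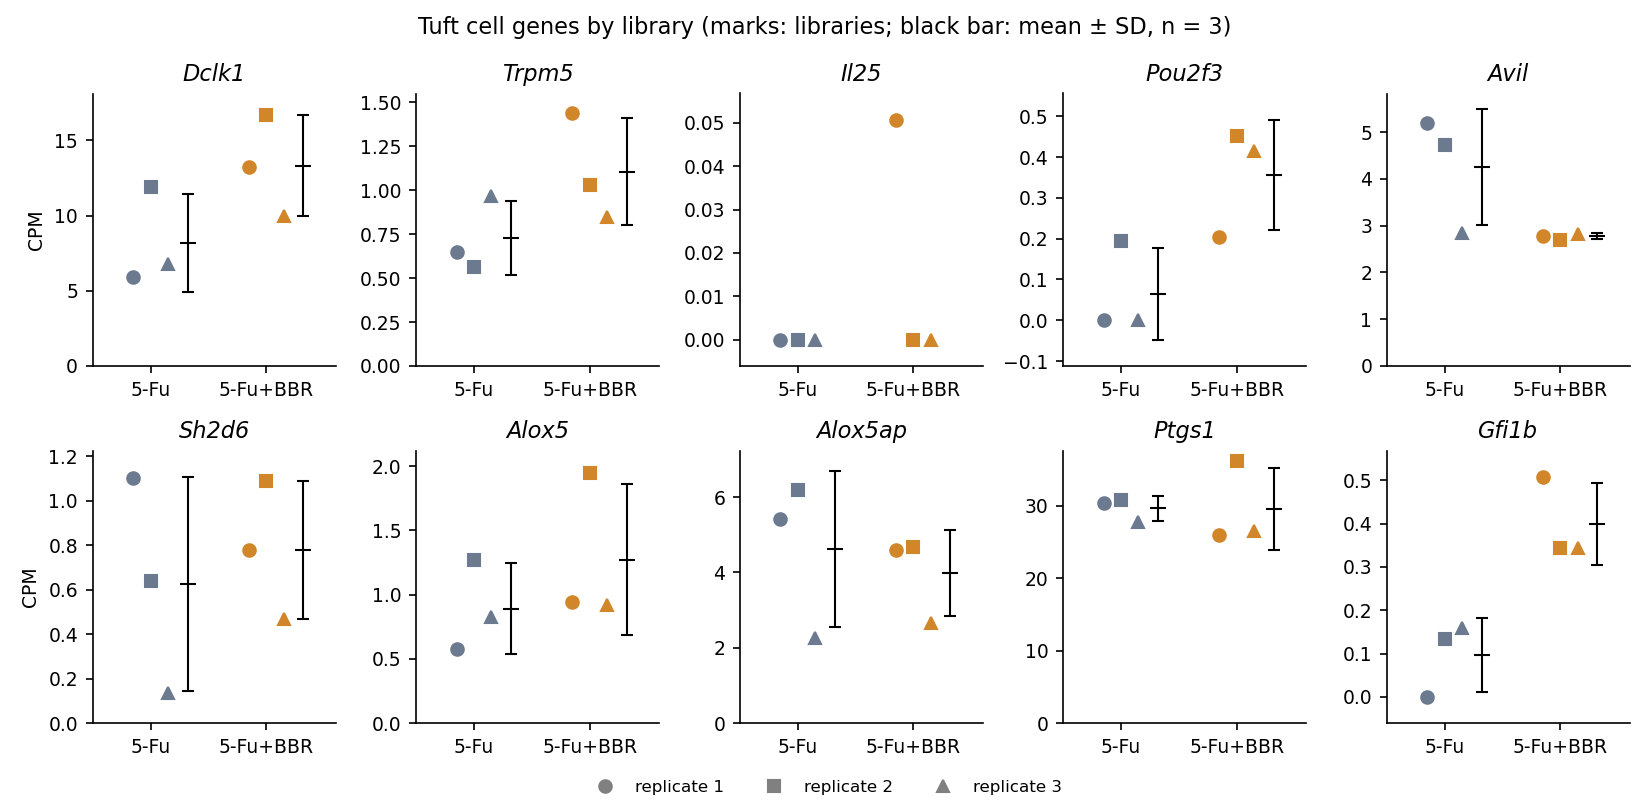
CPM of each of the 10 genes in each library, with marks for libraries (circle, square and triangle for replicates 1, 2 and 3) and black bars for the mean ± SD of 3 libraries, left out for Il25, which had counts in 1 library. The groups of Gfi1b do not overlap, on about 4 fragments in 5-Fu and 17 in 5-Fu+BBR. Those of Pou2f3 and Avil are parted by narrow gaps, and the other genes overlap. Gfi1b and Pou2f3 entered the test only through 5-Fu+BBR. Of all genes tested, 12.3% were higher and 9.68% lower in 5-Fu+BBR without overlap in CPM.

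Il25 (ENSMUSG00000040770, chromosome 14, 54932695 to 54935837), the tuft cell cytokine, had 0 counts in 5 of 6 libraries and 3 counts in 5-Fu+BBR replicate 1, which is at most about 1 fragment. Both groups lay under the floor of 3 fragments over a group, 0.0692 CPM for 5-Fu and 0.0706 CPM for 5-Fu+BBR, so a difference was not detectable at this depth. Il13, the cytokine of the type 2 lymphoid cells that IL-25 activates, had 0 counts in 5-Fu and 4 in 5-Fu+BBR, also under the floor. Il17rb, the IL-25 receptor subunit, was at 1.53, 1.07 and 2.33 CPM in 5-Fu 1 to 3, against 2.76, 3.24 and 2.71 CPM in 5-Fu+BBR 1 to 3. All 3 libraries of 5-Fu+BBR were higher, without passing the test (log2 fold change 0.82 ± 0.34, edgeR adjusted p = 0.3). Of the 19 genes listed for this type 2 circuit 18 were in the table and 15 were tested, and 0 passed by edgeR, with 3 at an unadjusted p under 0.05, all higher, against 9.48% of all genes. The median log2 fold change was 0.16, with 11 positive and 4 negative, against 50.7% positive of all genes. The 2 besides Il17rb were Klrg1, a receptor of activated lymphocytes, at 0, 0 and 0.0985 against 0.845, 0.633 and 0.848 CPM, and Rora, a transcription factor of innate lymphoid cells and many other cells, at 6.47, 5.46 and 5.24 against 8.12, 10.4 and 8.24 CPM (edgeR adjusted p = 0.139 and 0.208). Klrg1 rested on about 1 fragment in 5-Fu and 33 in 5-Fu+BBR, a ratio of 33.7 with an exact 95% interval of 5.64 to 1371 for counting error alone. It too entered the test only through 5-Fu+BBR, so its place among the 3 is no support for a difference of the list. The IL-13 receptor subunit Il13ra1 and the epidermal growth factor family ligand Areg had log2 fold changes of 0.31 and 0.33 (edgeR adjusted p = 0.337 and 0.488).

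Alox5, Alox5ap and Ptgs1 act in leukotriene and prostaglandin synthesis, and the last 2 had the highest FPKM of the 10. Alox5 (ENSMUSG00000025701, chromosome 6, 116410077 to 116461178), 5-lipoxygenase, was at 0.576, 1.27 and 0.828 CPM in 5-Fu 1 to 3, against 0.947, 1.95 and 0.92 CPM in 5-Fu+BBR 1 to 3. Replicate 2 was the highest of each group and the groups overlapped (log2 fold change 0.51 ± 0.46, 95% interval -0.55 to 1.57, edgeR adjusted p = 0.643). Without 5-Fu+BBR replicate 2 the log2 fold change was 0.065. Alox5ap (ENSMUSG00000060063, chromosome 5, 149264767 to 149288153) encodes FLAP, the membrane protein that hands arachidonic acid to 5-lipoxygenase. It was at 5.42, 6.18 and 2.27 CPM with 5-Fu alone, against 4.6, 4.67 and 2.67 CPM with berberine added. Replicate 3 was the lowest of each group, and the spread exceeded the difference (log2 fold change -0.22 ± 0.41, 95% interval -1.15 to 0.72, edgeR adjusted p = 0.84). Per length, Alox5ap exceeded Alox5 by 27.4, 14.4 and 8.42 times in 5-Fu 1 to 3 and by 14.4, 6.96 and 8.54 times in 5-Fu+BBR 1 to 3.

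Ptgs1 (ENSMUSG00000047250, chromosome 2, 36230426 to 36252272), the constitutive cyclooxygenase COX-1, was the most precisely measured of the 10. It was at 30.4, 30.8 and 27.7 CPM in 5-Fu 1 to 3, against 26, 36.1 and 26.5 CPM in 5-Fu+BBR 1 to 3, with the 5-Fu libraries lying inside the range of the others. The means were 29.6 ± 1.67 and 29.5 ± 5.73 CPM (n = 3), with a log2 fold change of -0.0049 ± 0.15 and a 95% interval of -0.36 to 0.35 (edgeR adjusted p = 0.992). Ptgs1 is made by stromal cells, mast cells, macrophages and platelets as well as tuft cells.

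**Figure D3:**
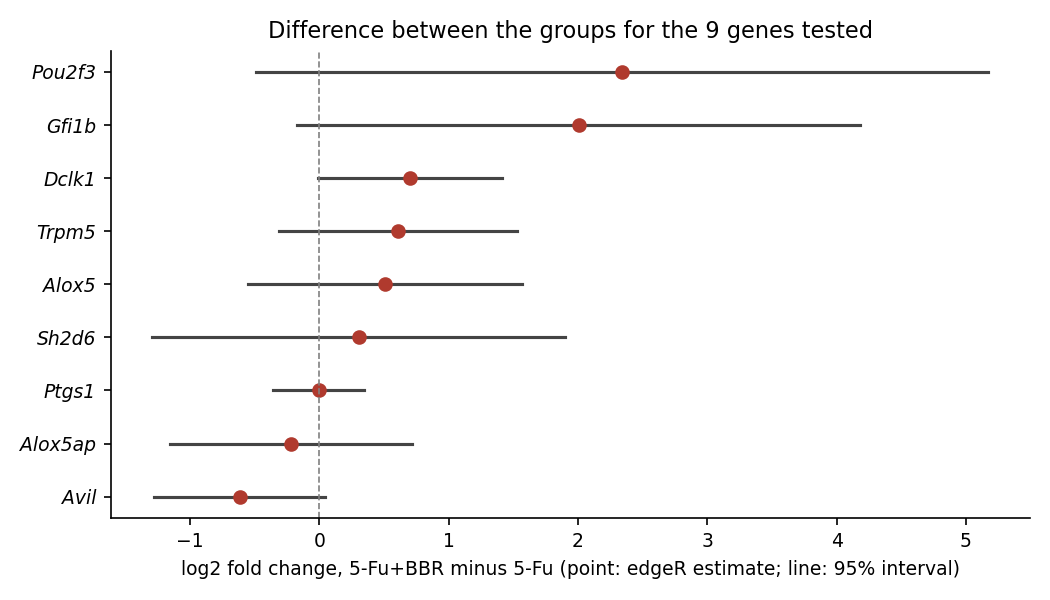
Log2 fold change, 5-Fu+BBR minus 5-Fu, of the 9 genes tested, with points for edgeR's estimate and lines for its 95% interval. All 9 intervals include 0, the narrowest being that of Ptgs1 (-0.36 to 0.35) and the widest that of Pou2f3 (-0.49 to 5.17).

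Among the other eicosanoid genes, 19 of 22 listed were tested and 0 passed by edgeR after adjustment, with 5 higher and 2 lower at an unadjusted p under 0.05 (9.48% and 6.08% of all genes). Their median log2 fold change was 0.37, with 14 positive and 5 negative (50.7% of all genes positive). Alox15, the 12/15-lipoxygenase of macrophages and eosinophils, was at 1.31, 0.61 and 0.611 CPM with 5-Fu alone, against 5.28, 11.3 and 5.38 CPM with berberine added. Its groups did not overlap, and it came closest to the threshold of all genes listed with tuft cell functions (log2 fold change 3.11 ± 0.46, edgeR adjusted p = 0.0705). Ptger4, a prostaglandin E2 receptor, was at 18.5, 16.2 and 17 against 22.8, 33.9 and 22.9 CPM (edgeR adjusted p = 0.184). The platelet-type lipoxygenase Alox12 and the thromboxane receptor Tbxa2r were also higher in all 3 libraries of 5-Fu+BBR, and the leukotriene B4 receptor Ltb4r1 was lower in all 3 (log2 fold changes 1.37, 1.10 and -1.04, edgeR adjusted p from 0.216 to 0.234). Direct partners of the 10 genes did not pass either. Ltc4s, which makes leukotriene C4 and is needed for tuft cell cysteinyl leukotrienes, was at 1.17, 1.49 and 1.1 against 1.88, 1.61 and 1.97 CPM, and Hpgds, the prostaglandin D2 synthase of tuft and mast cells, at 11.3, 6.4 and 6.31 against 9.64, 14.4 and 16 CPM (edgeR adjusted p = 0.436 and 0.283). Lta4h, Ptgs2 and Pla2g4a, of leukotriene B4, inducible prostaglandin and arachidonic acid release, had log2 fold changes of -0.16, 0.36 and -0.086 (edgeR adjusted p from 0.484 to 0.808).

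Of 17 other genes described in tuft cells, all were tested and 0 passed by edgeR after adjustment, with 6 higher and 1 lower at an unadjusted p under 0.05, against 9.48% and 6.08% of all genes. The median log2 fold change was 0.59, with 15 positive and 2 negative, against 50.7% positive of all genes. Among those with the smallest p were Cd300lf, the murine norovirus receptor, with a log2 fold change of 1.12 ± 0.36, Spib, an ETS factor of B cells, dendritic cells and M cells, with 1.28 ± 0.39, Siglecf, a lectin of eosinophils, with 1.76 ± 0.66, and the inositol phosphatase Inpp5j with 0.52 ± 0.20 (edgeR adjusted p from 0.215 to 0.275). Rgs13, which germinal centre B cells also make, and Nradd, the 1 lower gene, are named after their values were seen. Rgs13 had 1.93 ± 0.77 and Nradd -0.63 ± 0.27 (edgeR adjusted p = 0.285 and 0.314). Siglecf and Rgs13 reached the filter's minimum in all 3 libraries of 5-Fu+BBR but not of 5-Fu, and so entered the test only through 5-Fu+BBR. Their place among the 6 higher genes is no support for a difference of the list.

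**Figure D4:**
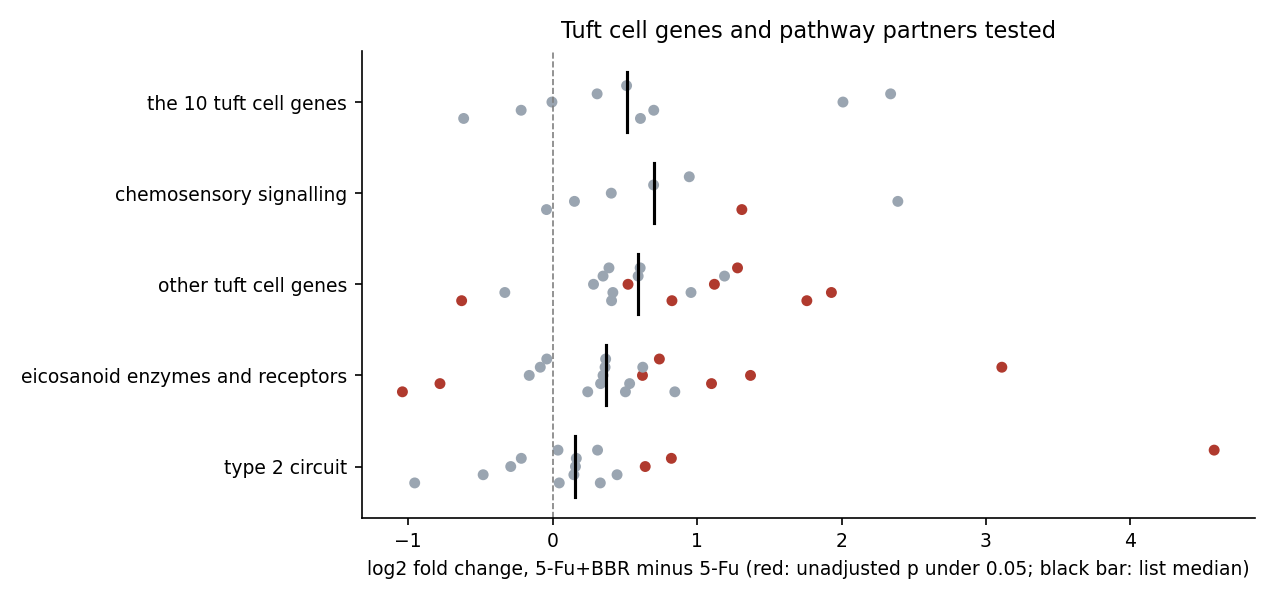
Log2 fold change of each gene tested among the 10 tuft cell genes and 4 lists of pathway partners, with red for an unadjusted p under 0.05 and a black bar for each list's median. The 10 genes hold no red mark among the 9 tested, and the medians of the 4 lists lie between 0.16 and 0.70.

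Several of these genes are also made by leukocytes and other cells, whose summed markers are given here for the same libraries. B cell and dendritic cell markers (9 of 9 in the table) summed to 35.4, 129 and 72.8 CPM in 5-Fu 1 to 3 and to 185, 260 and 229 CPM in 5-Fu+BBR 1 to 3. Macrophage and monocyte markers (11 of 11) summed to 455 to 593 against 706 to 908 CPM, and mast cell and basophil markers (12 of 12) to 47.8 to 54.2 against 62.3 to 100 CPM. The groups did not overlap for these 3 sums, nor for smooth muscle markers (6 of 6, 2199 to 2864 against 4087 to 4655 CPM). Kit was the largest part of the mast cell sum in every library, at 31.9 to 42.7 CPM in 5-Fu and 43 to 48.2 CPM in 5-Fu+BBR. By edgeR 0 genes of these 4 lists passed after adjustment, and at an unadjusted p under 0.05 all 9 B cell and dendritic cell, 5 macrophage, 5 mast cell and all 6 smooth muscle markers were higher, against 9.48% of all genes. Of these, Tpsb2, Tpsab1, Mcpt4 and Siglech are named after their values were seen. They reached the filter's minimum in all 3 libraries of 5-Fu+BBR but not of 5-Fu, and so entered the test only through 5-Fu+BBR. Their place in these counts is no support for a difference of the lists. Some defining markers, named here after their values were seen, were at 0 in part of the libraries. Among mast cell markers, Ms4a2 was at 0 in all 3 libraries of 5-Fu and at 0.135, 0.506 and 0.216 CPM in 5-Fu+BBR 1 to 3. Fcer1a was at 0 in 5-Fu 3 and 5-Fu+BBR 1, and Cpa3 in 5-Fu+BBR 1. Eosinophil markers were near 0, the sum of 6 staying at or under 1.32 CPM, with Ccr3 and Ear1 at 0 in 5 of 6 libraries each. Il5ra of the same list, a receptor subunit that B cells can also make, was at 0, 0.0893 and 0 against 0.372, 0.85 and 0.559 CPM. Its groups did not overlap (log2 fold change 4.10, edgeR adjusted p = 0.16), although it entered the test only through 5-Fu+BBR. Of the 3 eosinophil markers tested, 1 was positive and 2 were negative, Ear2 (log2 fold change -1.39) and Prg2 (-0.41), with a median of -0.41. Ear2 in turn reached the filter's minimum in all 3 libraries of 5-Fu but not of 5-Fu+BBR. Neutrophil markers (9 of 9), cells rich in Alox5 and Alox5ap, summed to 299 to 486 against 248 to 399 CPM, most of it Ly6g. The sum thus mostly shows Ly6g and hides the others. S100a8 was at 35.8, 32.7 and 2.7 CPM in 5-Fu 1 to 3, against 9.2, 0.253 and 0.144 CPM in 5-Fu+BBR 1 to 3. Of the 8 neutrophil markers tested, 7 had a negative log2 fold change (median -2.06). By edgeR, 2 were lower at an unadjusted p under 0.05, against 6.08% of all genes. These 2, Mmp8 and Retnlg, reached the filter's minimum in all 3 libraries of 5-Fu but had 0 counts in 5-Fu+BBR 2 and 3. They entered the test only through 5-Fu, where they were higher, and are no support for a difference of the list. The part of these cells in the values of Alox5, Alox5ap, Ptgs1, Plcb2, Cd300lf, Spib, Siglecf and Alox15 was not tested.

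**Figure D5:**
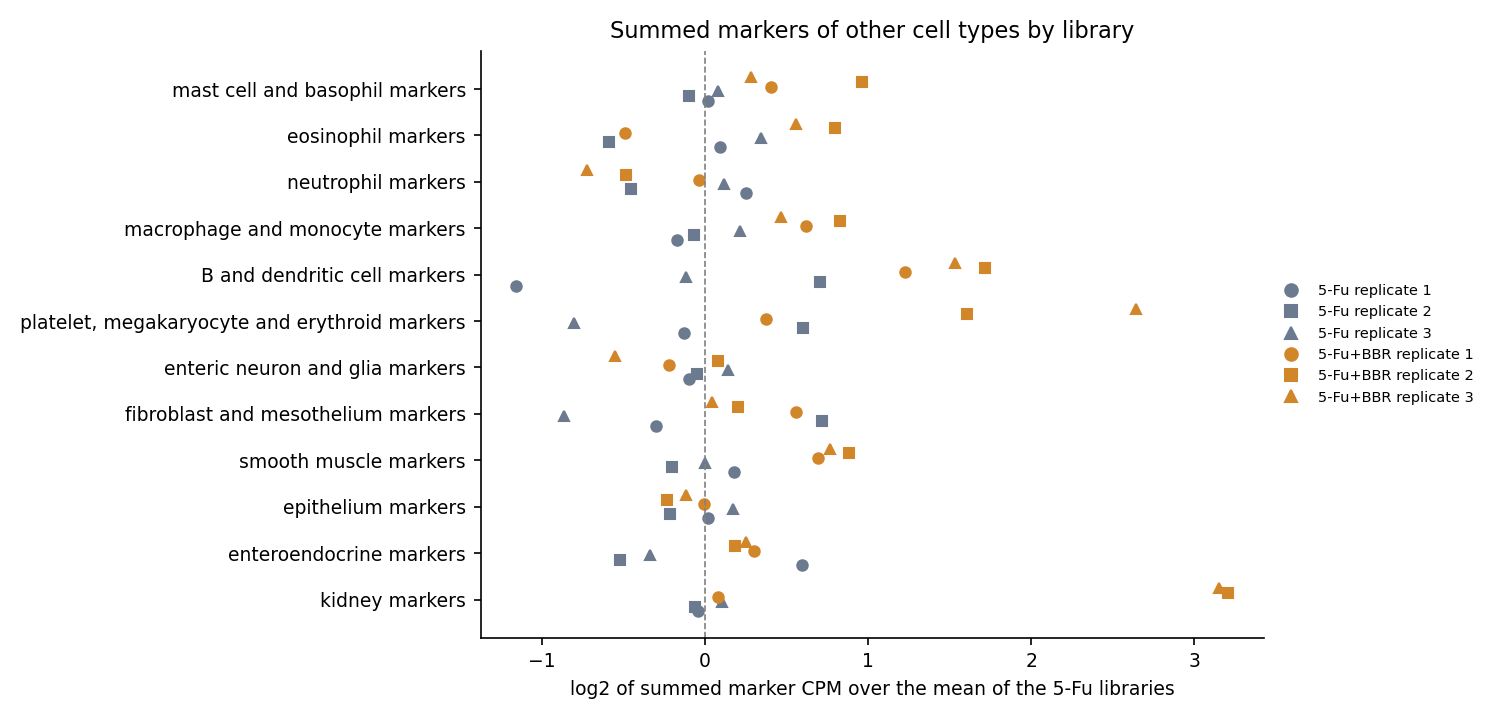
Summed CPM of 12 marker lists of other cells in each library, as log2 of the ratio to the mean of the 5-Fu libraries. B cell and dendritic cell, macrophage, mast cell and smooth muscle sums are higher in all 3 libraries of 5-Fu+BBR, and kidney sums are high in replicates 2 and 3 of 5-Fu+BBR only.

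Without 5-Fu+BBR replicates 2 and 3, which held the high kidney sums, 5-Fu+BBR replicate 1 alone differed from 5-Fu by log2 fold changes of 0.68 for Dclk1, 0.97 for Trpm5, 1.56 for Pou2f3, 2.35 for Gfi1b and -0.62 for Avil. Dclk1, Avil and Gfi1b were thus about as far from 5-Fu in the library without high kidney transcripts as in all 3, Trpm5 was farther and Pou2f3 less far. Sh2d6, Alox5, Alox5ap and Ptgs1 were at 0.30, 0.074, -0.022 and -0.20. The adjusted p of the 9 genes lay between 0.862 and 0.999 in this fit, in which the lone library is assumed to vary like the 5-Fu libraries.

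Genes with a like pattern were sought across the 6 libraries, by Pearson's r between a gene's log2 CPM and the mean centred profile of Dclk1, Trpm5, Pou2f3, Avil and Sh2d6. That profile was -0.38, 0.15 and -0.94 in 5-Fu 1 to 3 and 0.36, 0.62 and 0.18 in 5-Fu+BBR 1 to 3. It followed Pou2f3 (r = 0.907) and Dclk1 (0.893), less so Sh2d6 (0.712), but not Trpm5 (0.241) or Avil (-0.222), and so does not stand for all 5. Each of the 5 is part of the profile, which raises its own r. Pou2f3 also entered the test only through 5-Fu+BBR, so the profile is no support for a difference between the groups. Some markers of other cells, which are not part of the profile, also had a high r, such as Ccr2 of monocytes (0.965) and Pdgfra of fibroblasts (0.875). Others of the same lists did not, such as Itgam (0.0824) and Msln (0.105). Epithelial markers lay on both sides, from Lgals4 (-0.952) to Krt18 (0.902), with Epcam at -0.053. These markers were picked after their values were seen. The 8 genes with the highest r among 11833 were Lgals1, a galectin of stromal and immune cells, Zfp280d, Scamp5, Scd1, a fatty acid desaturase, Qsox1, Col6a4, Cd24a, a surface protein that tuft cells carry at a high level, and Irf5, an interferon regulatory factor of myeloid and B cells. Their r lay between 0.982 and 0.99 over 6 libraries, and 252 of the 11833 genes reached 0.9. Cd24a was at 241, 288 and 223 CPM in 5-Fu 1 to 3, against 295, 315 and 275 CPM in 5-Fu+BBR 1 to 3, and the groups overlapped. Its mean was 89.3 FPKM, against 0.0565 FPKM for Pou2f3, and the part of tuft cells in the Cd24a values was not tested.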

How the data were processed

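The deposited table gives, for each of 6 libraries, estimated counts per gene as whole numbers and FPKM, both computed by the authors and deposited without pooling. Named in the submitters' processing notes, with no role or order, are the build GRCm38, StringTie 1.3.4d, HISAT2 2.0.4, cutadapt 1.9, UMI-tools, edgeR and DESeq2. Per the labels' protocols, polyadenylated RNA was sequenced as strand-marked libraries with molecular identifiers. The annotation, and any use of strand or identifiers in counting, are not given in the sources used here. Libraries were grouped by their titles.

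Counts were filtered with filterByExpr, which left 20101 of 30777 genes, scaled with TMM and compared by the two-sided robust quasi-likelihood test of edgeR 4.0.16 in R 4.3.3, with no covariates. Adjusted p-values follow Benjamini and Hochberg over all genes tested. Intervals of 95% use the test's own degrees of freedom. Ratios of low genes use counts divided by 4. The steps were tested on simulated data. No pair of replicates agreed within sampling noise (chi-square per gene of 73.3 or more).

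The 10 genes, the lists and the tests were chosen with earlier results of these data known. Named were the 10 genes, the 5 genes of smallest p and direct partners in each pathway list, up to 3 leading markers per cell type and the 8 genes of highest r with a mean FPKM of at least 1, leaving out the 10 genes and predicted genes. One gene that this rule names is not reported here. Some others are named after their values were seen. Of 186 listed symbols, 2 were found under older names and 5 had no row and were not analysed here. The alternatives tried were limma-voom, limma-trend (limma 3.58.1) on log2(FPKM + 1) and log2(FPKM + 0.1), DESeq2 1.42.0, its size factors in edgeR, counts divided by 4, all genes unfiltered, a minimum of 50 counts in 3 libraries, the replicate number as a block, a threshold of 0.1, and each library left out in turn. Leaving out 5-Fu+BBR replicates 2 and 3 together was chosen after seeing the data. Figures used matplotlib 3.10.9.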

Additional observations from a re-analysis of the deposited data

How the results depend on the processing

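Of the 10 tuft cell genes, 0 passed an adjusted p under 0.05 under any alternative, or one of 0.1 by edgeR. Il25 was tested only without the filter and by DESeq2, and 5 of the 10 were left with the 50-count filter, 7 with counts divided by 4, 2 on log2(FPKM + 1) and 8 on log2(FPKM + 0.1). At an unadjusted p under 0.05 between 0 and 3 of them were found, the 3 by limma-voom. Dclk1, Trpm5, Pou2f3, Alox5 and Gfi1b kept a positive and Avil a negative log2 fold change in all alternatives in which they were tested. Ptgs1, near 0 throughout, was positive with the 50-count filter (0.0076) and with counts divided by 4 (0.0062), and lay between -0.18 and 0.081 when single libraries were left out. Sh2d6 lay between -0.15 and 0.98 and Alox5ap between -0.54 and 0.056 when single libraries were left out. Sh2d6 turned negative without 5-Fu replicate 3 or 5-Fu+BBR replicate 2, and Alox5ap positive without 5-Fu replicate 2 or 5-Fu+BBR replicate 3. Pou2f3 reached 7.31 without 5-Fu replicate 2, the one 5-Fu library with counts, a value that depends on edgeR's prior count.

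Over all genes, 15 passed by edgeR, 113 with the replicate block, 77 without the filter, 144 at an adjusted p of 0.1 and 1119 with DESeq2. With single libraries left out the count lay between 0 (without 5-Fu replicate 1 or 5-Fu+BBR replicate 2) and 159 (without 5-Fu replicate 2), and it was 53 without 5-Fu replicate 3 and 54 without 5-Fu+BBR replicate 1. Without both 5-Fu+BBR replicates 2 and 3 it was 0, with 1331 genes at an unadjusted p under 0.05, and the 2 other counts of 0 by edgeR had 2062 and 1888. The cause of these changes was not tested. Same-numbered libraries had correlations of 0.0579, 0.0242 and 0.123 between their deviations from the group means. Differently numbered libraries lay between -0.146 and 0.104, and not every library correlated best with its own number. With 3 libraries per group, these values cannot settle whether the replicate numbers pair the libraries. Depth limits Il25, Pou2f3, Gfi1b and Sucnr1, each of which rested on at most 17 fragments in a group.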
